A study of Mus musculus with 22 samples.

Results

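Brown adipose tissue (BAT) of mice lacking CPEB2 was compared with that of wild-type mice over both viruses of the rescue experiment. Of the 22 BAT libraries of the series, the 12 from mice injected with adeno-associated virus (AAV) were used, 6 CPEB2-KO libraries against 6 CPEB2-WT libraries, 1 library per mouse. They were taken by the genotype and virus in the sample labels, and no measured value entered that choice. Of the 55487 gene identifiers in the count table, 18899 passed the filter on low counts and were tested. Each genotype received either virus, AAV-GFP or AAV-PRDM16, which makes 4 groups of 3 mice. The genotype difference was the mean of both KO groups minus the mean of both WT groups, so that each virus had the same weight. The mice were male and on a C57BL/6 background. They received 20000000000 vector genomes in 30 µl into interscapular BAT at the age of 16 weeks. BAT was taken 9 weeks later, which makes 25 weeks, while the paper's discussion gives a slightly higher age at collection. One virus carried the coding region of green fluorescent protein (GFP) and the other that of flag-tagged mouse PRDM16. The knockout is global and the mice came from heterozygous crosses, so CPEB2 is missing from each cell type of the tissue and from other organs throughout life. No group without AAV is part of this comparison. A further 5 WT and 5 KO mice that received no virus, the untreated cohort, are used at the end for the direction of the changes only.

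BAT burns fatty acids and glucose to make heat. Its brown adipocytes are packed with mitochondria, whose respiratory chain is built from many subunits encoded in the nucleus and a few encoded in the mitochondrial genome, and uncoupling protein 1 (UCP1) releases the proton gradient of that chain as heat. CPEB2 is an RNA-binding protein that regulates the translation of mRNAs carrying cytoplasmic polyadenylation elements, and PRDM16 is a transcriptional regulator that favours the brown fat program over the muscle program. The tissue also holds capillaries, nerve, pericytes, fibroblasts, adipocyte progenitors and macrophages, which make most of its extracellular matrix and immune transcripts. Bulk libraries pool them all, and a lower count of cells of one type cannot be told apart from less of a transcript per cell.

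WT libraries held 85664107 to 143005309 counts and KO libraries 61636889 to 119502062. The defining markers of brown adipocytes were high in every library, with *Ucp1* between 1184 and 3531 CPM and *Cidea* between 1078 and 1719 CPM. All levels below are CPM, counts relative to the library total after TMM scaling, and a fold change is given on the log2 scale as KO minus WT (log2FC). The test was edgeR's two-sided quasi-likelihood test, its p-values were adjusted by Benjamini-Hochberg for the 18899 genes, and a gene was called at an adjusted p of at most 0.05. On the principal components of log2 CPM, mouse 69 of KO + AAV-GFP had the highest score on the first, which held 25.6% of the variance, and mouse 76 of KO + AAV-PRDM16 the highest on the second, which held 12.8%. Values without these 2 mice, a setting chosen after the data were seen, are given with the lists and counts that moved.

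*Cpeb2* (ENSMUSG00000039782, chromosome 5, bases 43233170 to 43289724 of the plus strand in GRCm38) was read first as a check of the labels. In WT its lowest, median and highest levels were 10.5, 12.8 and 13.96 CPM, and in KO they were 4.33, 5.32 and 5.55 CPM. Every KO library lay below every WT library, by a wide gap in relation to the spread within a genotype. The log2FC was -1.26 (SE 0.10, adjusted p = 0.000449), the smallest adjusted p of all genes tested. The count pools reads over the whole gene, and *Gm7854*, on the opposite strand at its start, was at most at 0.143 CPM in any library. The other members of the CPEB family, which recognise related RNA elements, were not called. *Cpeb4* covered 37.8 to 58.7 CPM in WT libraries and 52.4 to 70.9 CPM in KO libraries, with a log2FC of 0.24 (SE 0.10, adjusted p = 0.207). *Cpeb3* had a log2FC of 0.09 (SE 0.08, adjusted p = 0.608) and *Cpeb1* of -0.05 (SE 0.15, adjusted p = 0.908).

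*Prdm16* counts hold endogenous and viral transcripts together. Its lowest, median and highest levels were 23.9, 43.0 and 121.9 CPM in WT and 31.7, 51.9 and 127.8 CPM in KO. The genotypes overlapped almost fully, with a log2FC of -0.06 (SE 0.24, adjusted p = 0.936), and the sign of this value changed under several alternatives. Mice given AAV-PRDM16 enter this value in both genotypes, so it does not describe the endogenous transcript alone. Levels in mice without virus are given with the untreated cohort below.

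The genotype difference reached 412 genes at an adjusted p of 0.05, 2.18% of those tested. Of these, 200 rose in KO (1.06% of those tested) and 212 fell (1.12%), and 69 (0.365%) changed by at least 2-fold, 62 higher and 7 lower. Genes that rose changed more than genes that fell: the median log2FC was 0.82 over the former, with an interquartile range of 0.63 to 1.09, and -0.42 over the latter, with a range of -0.55 to -0.35. They were also less abundant, with a median level of 6.07 against 33.3 CPM, and levels here are not corrected for gene length. All but 2 of the genes that rose, 198, and 201 of those that fell are protein-coding. The median log2FC of all genes tested was 0.01. In 512 genes (2.71%) the 6 KO libraries lay entirely above or below the 6 WT libraries, above in 214 (1.13%) and below in 298 (1.58%), and 116 of the genes that rose and 145 of those that fell were among them.

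**Figure D1:**
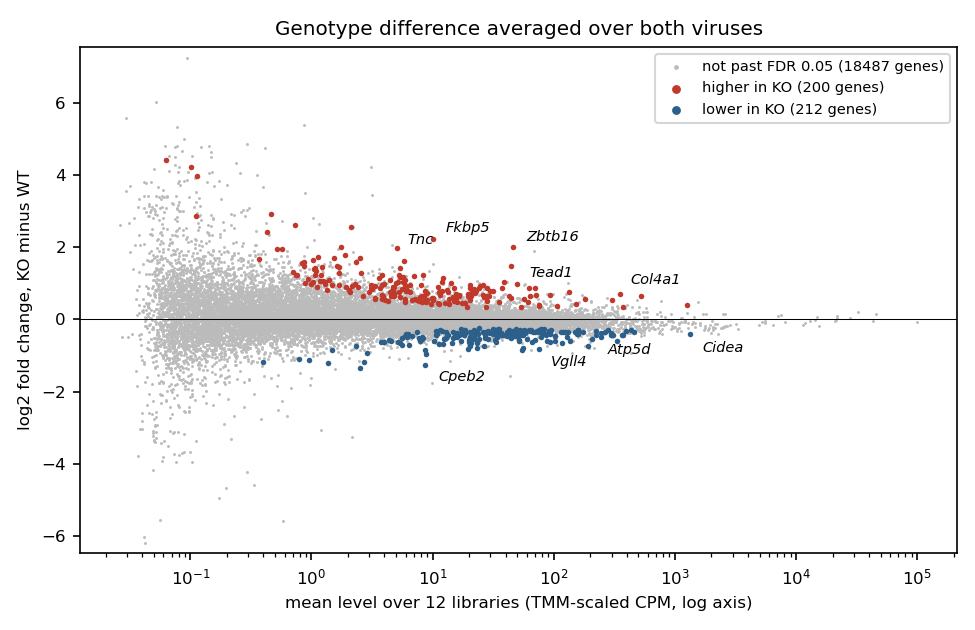
Each point is 1 of 18899 genes, by its mean level over the 12 libraries (TMM-scaled CPM, log axis) and its log2 fold change, KO minus WT, averaged over both viruses. The 200 genes higher in KO (red) spread to large changes at low and middle levels, the 212 genes lower in KO (blue) form a narrow band below 0, and genes that were not called are grey.

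The same contrast within 1 virus called far fewer genes. Within AAV-GFP, 10 genes (0.0529%) were called, 1 higher and 9 lower in KO, and within AAV-PRDM16 there were 9 (0.0476%), 8 higher and 1 lower. These numbers were 7 and 0 without mice 69 and 76. They depended on the method: within AAV-GFP and AAV-PRDM16, DESeq2 called 243 and 619 genes and limma-voom 12 and 545. All 412 genes called over both viruses had the same sign within each virus, and the contrast that averages the viruses favours genes for which that holds. The median log2FC of the genes that rose was 0.69 within AAV-GFP and 0.88 within AAV-PRDM16, and that of the genes that fell was -0.41 and -0.43. The interaction of genotype and virus tests whether the genotype difference differed between the viruses. By edgeR's quasi-likelihood test it called 0 genes, with 603 at an unadjusted p under 0.05, and DESeq2 called 1. The edgeR test called 2 genes without mice 69 and 76. Over both viruses, 61 genes rose and 109 fell without these mice, and 58 and 75 of these were among the 200 and 212. With any 1 of the 12 libraries left out, between 51 and 362 genes rose and between 36 and 228 fell, and none of the 412 genes that could be fitted then changed sign.

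Among called protein-coding genes of at least 1 CPM with an official symbol and no overlap of the 6 and 6 libraries, *Col28a1*, which encodes a collagen chain, had the largest rise. Its lowest, median and highest levels were 0.187, 0.631 and 1.07 CPM in WT and 2.87, 3.48 and 4.51 CPM in KO. The lowest KO library was above the highest WT library, with a log2FC of 2.56 (SE 0.34, adjusted p = 0.00838). *Fkbp5*, a co-chaperone of the glucocorticoid receptor whose transcription glucocorticoids induce, was at 1.26, 3.38 and 6.47 CPM in WT and 11.7, 17.2 and 20.5 CPM in KO. Its log2FC was 2.23 (SE 0.29, adjusted p = 0.00811), and it kept its call in each of the 12 fits that left out a library and under the 13 other alternatives. *Tnc*, the matrix glycoprotein tenascin-C of remodelling tissue, was at 0.936, 1.75 and 4.14 CPM in WT and 4.77, 8.23 and 12.7 CPM in KO (log2FC 1.98, SE 0.32, adjusted p = 0.0145). *Casq2*, the cardiac form of the calcium-binding protein calsequestrin, was at 0.626, 1.02 and 2.17 CPM in WT and 2.81, 3.66 and 4.02 CPM in KO (log2FC 1.58, SE 0.25, adjusted p = 0.0133). Both were called in all 12 fits that left out a library.

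*Mest*, an imprinted gene linked to fat cell enlargement, rose from a median of 0.716 to 2.63 CPM (log2FC 2.01, SE 0.41, adjusted p = 0.0317) and was called in 5 of the 12 fits that left out a library. *Itgam*, the integrin chain CD11b of myeloid cells, rose by 1.70 (SE 0.37, adjusted p = 0.0379). Its highest KO level, 9.89 CPM, was that of mouse 69, and the other 5 KO libraries were between 2.03 and 3.54 CPM. *Slc10a6*, a transporter of sulfated steroids, rose by 1.69 (SE 0.36, adjusted p = 0.0379), and *Cenpf*, a kinetochore protein of dividing cells, by 1.64 (SE 0.38, adjusted p = 0.0476). The neuronal serpin *Serpini1* (log2FC 1.44), *Shroom3*, an actin-binding regulator of cell shape (1.45), *Vasn*, a membrane protein that binds transforming growth factor beta (1.41), and *Zfpm2*, a cofactor of GATA factors (1.40), complete the 12 largest rises within these limits. With 1 library left out, *Itgam* kept its call in 1 of 12 fits, *Cenpf* in 2, *Slc10a6* and *Shroom3* in 3 each, *Vasn* in 4, *Zfpm2* in 5 and *Serpini1* in 11.

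**Figure D2:**
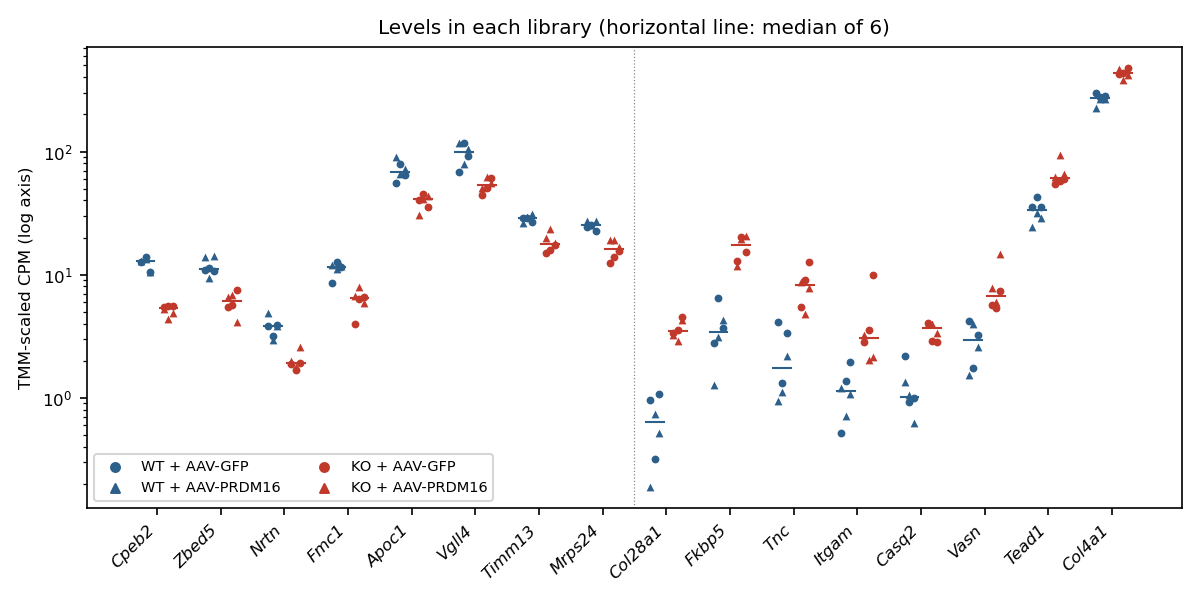
Level of 16 genes in each of the 12 libraries (TMM-scaled CPM, log axis), WT in blue and KO in red, circles for AAV-GFP and triangles for AAV-PRDM16, with the median of 6 as a line. The 8 genes left of the dotted line were lower and the 8 right of it higher in KO, and in each gene the 6 red points lie clear of the 6 blue ones. Except for *Cpeb2*, *Tead1* and *Col4a1*, the genes were picked from those without overlap, so that this separation was a condition of the choice.

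Among called protein-coding genes of at least 1 CPM with an official symbol and no overlap, the genes with the largest falls after *Cpeb2* were the following. *Zbed5*, a gene derived from a DNA transposon, was at 9.30, 11.1 and 14.2 CPM in WT and 4.09, 6.11 and 7.501 CPM in KO (lowest, median and highest). Its log2FC was -0.96 (SE 0.15, adjusted p = 0.0131). *Nrtn*, the neurotrophic factor neurturin, was at 2.95, 3.83 and 4.88 CPM in WT and 1.69, 1.89 and 2.59 CPM in KO (log2FC -0.94, SE 0.15, adjusted p = 0.0145). *Fmc1*, an assembly factor of the mitochondrial ATP synthase, fell by 0.86 (SE 0.14, adjusted p = 0.0145), and *Apoc1*, an apolipoprotein that inhibits lipoprotein uptake, fell by 0.85 (SE 0.12, adjusted p = 0.00950), from a median of 68.6 to 40.7 CPM. *Vgll4*, a cofactor that competes with YAP for TEAD transcription factors, was at 68.0, 98.7 and 116.2 CPM in WT and 44.5, 53.0 and 62.1 CPM in KO. It fell by 0.83 (SE 0.14, adjusted p = 0.0165).

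*Phospho1*, a phosphatase of phosphocholine that is abundant in brown fat, fell by 0.73 (SE 0.13, adjusted p = 0.0195). Its difference was -0.34 within AAV-GFP and -1.13 within AAV-PRDM16, and its highest levels, 365.3 and 299.5 CPM, were in WT + AAV-PRDM16. The test of the difference between the viruses, edgeR's interaction test, gave an unadjusted p of 0.00954 and did not pass adjustment. The insulin receptor substrate *Irs3* (log2FC -0.73, SE 0.17, adjusted p = 0.0476) and *Ppp1r1a*, an inhibitor subunit of protein phosphatase 1 (log2FC -0.68, SE 0.15, adjusted p = 0.0395), also fell, as did *Slc52a2*, a riboflavin transporter (log2FC -0.65, SE 0.14, adjusted p = 0.0395). The mitochondrial ribosomal protein *Mrps24* was at 22.5, 25.5 and 27.4 CPM in WT and 12.3, 16.2 and 19.0 CPM in KO (log2FC -0.67, SE 0.07, adjusted p = 0.00439). *Timm13*, a chaperone of the mitochondrial intermembrane space, was at 26.3, 28.8 and 30.8 CPM in WT and 15.0, 17.9 and 23.6 CPM in KO (log2FC -0.65, SE 0.08, adjusted p = 0.00590). Both mitochondrial genes were called in all 12 fits without 1 library, as were *Zbed5* and *Apoc1*. *Nrtn*, *Fmc1* and *Vgll4* were called in 11 of them, *Phospho1* in 9, *Ppp1r1a* and *Slc52a2* in 2 each and *Irs3* in 0.

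The gene lists below and their members were chosen with earlier results of these data known. Their shares of called genes therefore describe the lists and are not independent evidence. The 6 lists of nuclear genes for mitochondrial proteins held 227 genes tested, 1.20% of all, and 46 of the 212 genes that fell (21.7%), with 0 of the 200 that rose. For complex I of the respiratory chain, which oxidises NADH, 13 of 37 genes fell and 0 rose, 35.1% against the 1.12% of all genes. All 37 had a negative log2FC, with a median of -0.27 against 0.01 over all genes, and DESeq2 called 24 lower and 0 higher. *Ndufa1*, an accessory subunit, was at 54.9, 63.9 and 67.9 CPM in WT and 32.9, 38.5 and 52.6 CPM in KO, without overlap (log2FC -0.61, SE 0.08, adjusted p = 0.00838). *Ndufb11* (log2FC -0.45), *Ndufb6* (-0.43), *Ndufv3* (-0.38), *Ndufa11* (-0.42) and *Ndufa2* (-0.42) fell likewise. The catalytic core subunit *Ndufs1* was at 584.4 to 700.8 CPM in WT and 526.2 to 725.4 CPM in KO and was not called (log2FC -0.04, adjusted p = 0.855).

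For complexes II to V, 16 of 43 nuclear genes fell (37.2% against 1.12% of all genes) and 0 rose. Of the 43, 41 had a negative log2FC (median -0.26). Summed over the list, WT libraries held 20596 to 23164 CPM and KO libraries 16796 to 20324 CPM, without overlap. *Uqcr11*, a small subunit of complex III, was at 97.1, 104.7 and 113.3 CPM in WT and 55.2, 70.7 and 84.0 CPM in KO (log2FC -0.59, SE 0.07, adjusted p = 0.00590). *Uqcrq* of the same complex (log2FC -0.56), *Cox5b* of complex IV (-0.44), and *Atp5e* (-0.53), *Atp5d* (-0.44) and *Atp5g3* (-0.41) of the ATP synthase also fell. The catalytic subunit *Atp5b* had the highest CPM of the list and was not called (log2FC -0.16, SE 0.08, adjusted p = 0.293). Of the 13 protein genes of the mitochondrial genome, 0 were called by edgeR's quasi-likelihood test, 0 had an unadjusted p under 0.05 and DESeq2 called 0. Their median log2FC was -0.02. The difference between the nuclear and the mitochondrial lists was not tested.

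Further lists cover the synthesis and import of mitochondrial proteins and fuel oxidation. Of 78 mitochondrial ribosomal protein genes 12 fell (15.4% against 1.12% of all genes) and 0 rose. Of the 78, 75 were negative, with a median log2FC of -0.19. *Mrps36* was at 35.6, 40.3 and 44.8 CPM in WT and 22.6, 26.2 and 29.6 CPM in KO (log2FC -0.64, SE 0.07, adjusted p = 0.00439), and *Mrpl54*, *Mrpl41*, *Mrpl15* and *Mrps26* fell by 0.45, 0.46, 0.37 and 0.51. Of 36 import genes 2 fell (5.56%), *Timm13* and *Tomm7* of the outer membrane pore (log2FC -0.52, adjusted p = 0.00838), and 34 were negative (median -0.19). Of 19 genes of mitochondrial fatty acid oxidation 3 fell (15.8%), the carnitine carrier *Slc25a20* (log2FC -0.43, SE 0.08, adjusted p = 0.0253), *Decr1* (-0.35, adjusted p = 0.0307) and *Eci1* (-0.38, adjusted p = 0.0415), which handle unsaturated fatty acids. In the citric acid cycle 1 of 18 fell (5.56%), *Sdhb* (log2FC -0.31, adjusted p = 0.0488), which is also counted with complex II. The list medians were -0.25 and -0.17.

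Without mice 69 and 76, 9 of the complex I genes, 11 of those of complexes II to V and 5 mitochondrial ribosomal protein genes fell, with medians of -0.29, -0.29 and -0.21. After correction of each library for its trends with GC content and transcript length, the numbers were 9, 12 and 8 and the medians -0.21, -0.21 and -0.16. Of fatty acid oxidation only *Slc25a20* and of the citric acid cycle 0 genes were called without mice 69 and 76, and both import genes kept their calls. With 1 library left out, *Slc25a20* was called in 6 of 12 fits, *Decr1* in 4, *Eci1* in 2 and *Sdhb* in 1. The genes of these lists are mostly short, and the part of transcript length in the result is taken up below.

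Of 25 thermogenic genes of brown fat, 3 fell (12% against 1.12% of all genes) and 0 rose, with a median log2FC of -0.13. Of the 3, *Cox7a1* and *Cox8b* are also counted with complexes II to V. *Cox7a1*, the heart and muscle form of a complex IV subunit that brown fat shares, was at 71.9, 80.4 and 89.8 CPM in WT and 39.6, 56.4 and 61.0 CPM in KO (log2FC -0.63, SE 0.10, adjusted p = 0.0145). *Cox8b*, another tissue form of complex IV, had ranges of 118.0 to 163.0 CPM and 65.6 to 118.5 CPM that touched (log2FC -0.66, SE 0.12, adjusted p = 0.0189). *Cidea*, a lipid droplet protein of brown adipocytes, fell from a median of 1514 to 1135 CPM (log2FC -0.39, SE 0.08, adjusted p = 0.0378) and was called in 4 of the 12 fits without 1 library. Without mice 69 and 76, *Cidea* was not called, *Cox7a1* and *Cox8b* were, and *Bmp8b*, a secreted factor of the bone morphogenetic protein family, was called higher. The list's median was then -0.23. *Ucp1* itself was at 1184, 2419 and 3531 CPM in WT and 1373, 1762 and 2477 CPM in KO. Its ranges overlapped (log2FC -0.24, SE 0.22, adjusted p = 0.612), and the difference was 0.15 within AAV-GFP and -0.63 within AAV-PRDM16. The 12 markers of mature adipocytes had a median log2FC of -0.11, with 0 called by edgeR's quasi-likelihood test, 3 at an unadjusted p under 0.05 and 3 called lower by DESeq2. Their summed level was 13503 to 17453 CPM in WT and 13402 to 15451 CPM in KO.

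**Figure D3:**
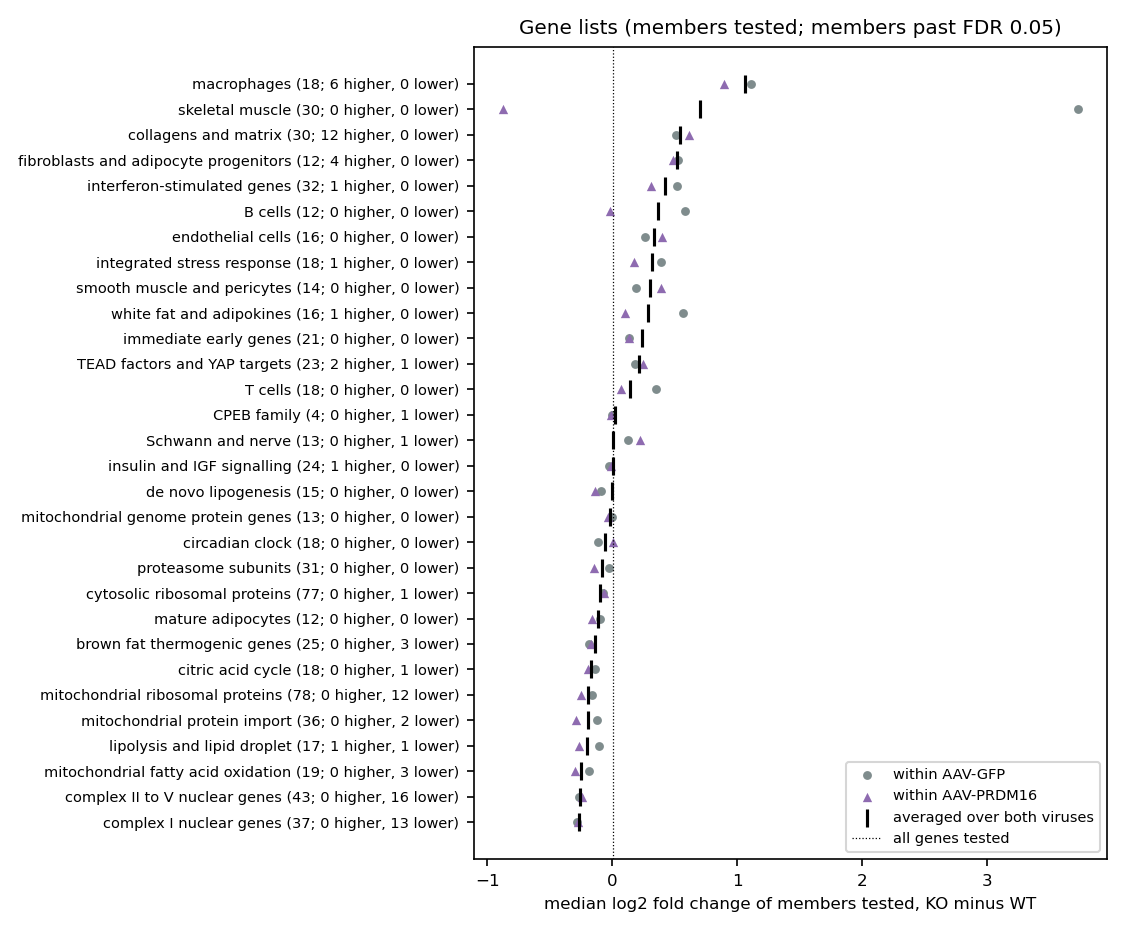
Median log2 fold change, KO minus WT, of the tested members of 30 gene lists, within AAV-GFP (circles), within AAV-PRDM16 (triangles) and averaged over both (bars), beside the median of all genes tested (dotted line). Lists of nuclear genes for mitochondrial proteins lie between -0.17 and -0.27, collagens and matrix at 0.54 and macrophages at 1.06, while the skeletal muscle list has medians of opposite sign within the 2 viruses.

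Some genes of the extracellular matrix rose. Of 30 genes for collagens and other matrix proteins, 12 rose (40.0% against 1.06% of all genes), 0 fell and 18 were not called. Of the 30, 27 had a positive log2FC, and the median was 0.54. *Col4a1*, a chain of the basement membrane collagen, was at 224.3, 271.8 and 297.9 CPM in WT and 378.0, 432.6 and 477.4 CPM in KO. Its log2FC was 0.70 (SE 0.08, adjusted p = 0.00439), and its partner chain *Col4a2*, transcribed from the opposite strand next to it, rose by 0.52 (SE 0.09, adjusted p = 0.0145). *Nid1*, the basement membrane linker nidogen, was at 35.1, 53.9 and 57.2 CPM in WT and 77.0, 91.6 and 103.9 CPM in KO (log2FC 0.87, SE 0.13, adjusted p = 0.0116). *Col8a1* (log2FC 1.03, adjusted p = 0.00838), *Fbn1*, the microfibril protein fibrillin (0.82, adjusted p = 0.00838), and elastin, *Eln* (0.77, adjusted p = 0.0131), rose without overlap as well. *Sparc*, a collagen-binding protein and the member with the highest CPM, did not overlap between genotypes but was not called (log2FC 0.35, SE 0.09, adjusted p = 0.0585). Summed over the list, WT libraries held 1494 to 1910 CPM and KO libraries 2167 to 2587 CPM. Without mice 69 and 76, 7 members rose and the median was 0.53, and after the correction for GC content and length 10 rose and the median was 0.58.

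Among markers of other cell types, those of fibroblasts and of macrophages held called genes that rose. Of 12 markers of fibroblasts and adipocyte progenitors 4 rose (33.3% against 1.06% of all genes) and 0 fell (median log2FC 0.52). They were *Cd34* (log2FC 0.99, SE 0.16, adjusted p = 0.0145), which progenitors and endothelium share, *Col3a1* (0.67, adjusted p = 0.0429), *Mfap5* (0.95, adjusted p = 0.0449) and *Col1a1* (0.72, adjusted p = 0.0484). *Col3a1* and *Col1a1* are also counted in the matrix list. With 1 library left out, *Cd34* was called in all 12 fits, *Col1a1* in 1, and *Col3a1* and *Mfap5* in 0. *Cd34* was at 7.28, 9.50 and 11.4 CPM in WT and 13.0, 18.4 and 26.2 CPM in KO. The list's defining markers were not called, *Pdgfra* with 7.25 to 10.8 CPM in WT and 10.4 to 16.8 CPM in KO, and *Dcn* and *Lum* with overlapping ranges too. The list's summed level was 377.7 to 644.1 CPM in WT and 573.2 to 762.2 CPM in KO. Without mice 69 and 76, 1 of the 12 rose, with a median of 0.44.

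Of 18 macrophage markers 6 rose (33.3% against 1.06% of all genes) and 0 fell. All 18 were positive, and the median log2FC was 1.06. *Cd163*, a scavenger receptor of resident macrophages, was at 2.02, 2.75 and 5.54 CPM in WT and 5.97, 7.05 and 9.81 CPM in KO, without overlap (log2FC 1.23, SE 0.18, adjusted p = 0.00950). It was called in all 12 fits without 1 library. *Csf1r*, the receptor of the growth factor on which macrophages depend, was at 5.07, 7.07 and 11.6 CPM in WT and 10.3, 13.2 and 33.5 CPM in KO, where the highest value was that of mouse 69 (log2FC 1.02, SE 0.21, adjusted p = 0.0349). *Mrc1* (0.88), *Cybb* (1.19) and *C1qb* (1.14) rose with ranges that overlapped. Of the list's defining markers *Csf1r* was called, while *Adgre1* (log2FC 1.11, adjusted p = 0.0585) and *Cd68* (0.98, adjusted p = 0.121) were not. With 1 library left out, *Mrc1* was called in 5 of 12 fits, *Csf1r* in 3, *C1qb* in 2, and *Cybb* and *Itgam* in 1 each. The summed level of the list was 60.9 to 182.0 CPM in WT and 112.3 to 563.9 CPM in KO, and mouse 69 set the upper end. Without that mouse 4 members rose and the median was 0.72. Without mice 69 and 76, 3 rose and it was 0.68. After the correction for GC content and length 3 rose, with a median of 1.11.

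Endothelial markers (median 0.33), pericyte and smooth muscle markers (0.30), T-cell markers (0.15) and B-cell markers (0.37) had 0 members called by edgeR's quasi-likelihood test in either direction. At an unadjusted p under 0.05 there were 8, 9, 2 and 1 of them, and DESeq2 called 6, 4, 0 and 0. *Cdh5* of endothelium had a log2FC of 0.43 (adjusted p = 0.0878) and *Rgs5* of pericytes one of 0.38 (adjusted p = 0.0796), the members of each list with the highest CPM. Without mouse 57 of KO + AAV-GFP, 9 endothelial markers were called higher, and without mouse 69 none were. The medians of the T-cell and B-cell lists were -0.28 and -0.0080 without mouse 69. Of the Schwann cell and nerve list 1 of 13 fell (7.69% against 1.12% of all genes), *Gfra3*, the receptor of the neurotrophic factor artemin (log2FC -1.09, SE 0.21, adjusted p = 0.0248). The list's member with the highest CPM, *S100b*, was at 57.1 to 96.7 CPM in WT and 64.9 to 108.7 CPM in KO. What part changes in these cell types have in the matrix and mitochondrial results was not tested.

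**Figure D4:**
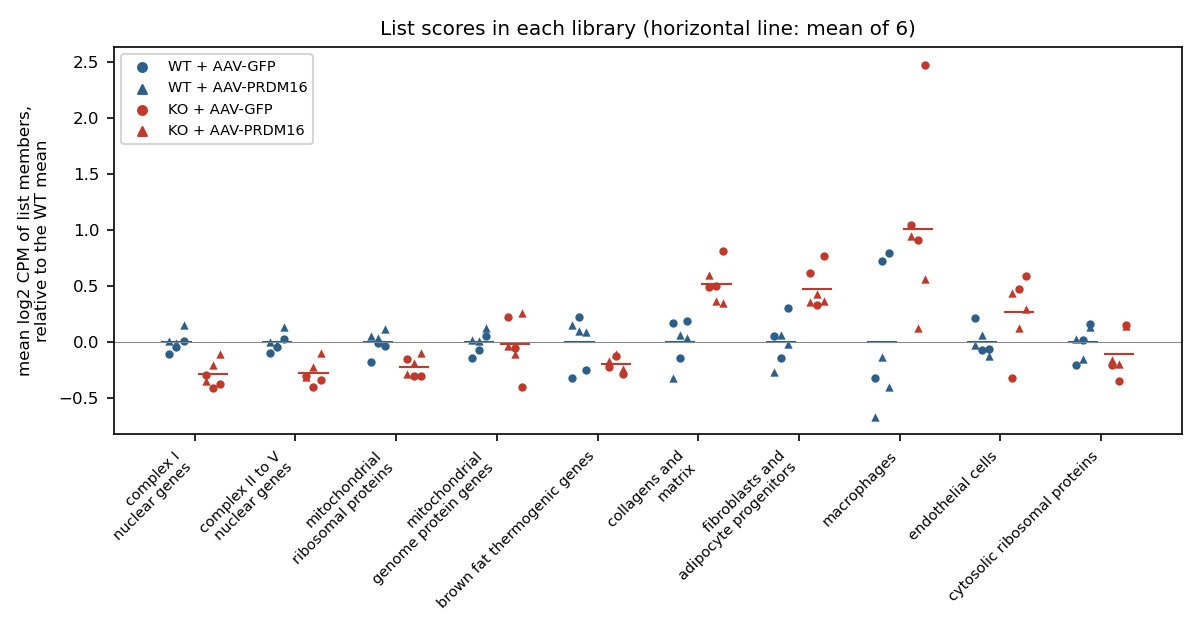
Mean log2 CPM of the members of 10 gene lists in each library, relative to the mean of the 6 WT libraries, with the mean of each genotype as a line (at 0 for WT, WT blue, KO red, circles AAV-GFP, triangles AAV-PRDM16). The collagen and fibroblast scores of the 6 KO libraries lie above those of all WT libraries, narrowly for fibroblasts. The complex II to V scores lie below them but all but touch (7.51012 at most in KO, 7.51024 at least in WT, before the WT mean was taken off). The complex I scores overlap slightly. The macrophage scores overlap as well, and mouse 69 stands at their top.

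The skeletal muscle list showed no call in the AAV cohort, and its values in the untreated cohort are given below. Of its 40 genes 30 were tested, 0 were called by edgeR's quasi-likelihood test, 2 had an unadjusted p under 0.05, and DESeq2 called 1 lower. The median log2FC of 0.70 rested on single libraries: within AAV-GFP it was 3.73 and within AAV-PRDM16 -0.87. The mean log2 CPM over the list was 1.74 in mouse 57 of KO + AAV-GFP and 0.34 in mouse 64 of WT + AAV-PRDM16, and at most -1.54 in the other 10 mice. Without mouse 57 the median was -0.16. The defining markers *Ckm* and *Myh4* were each at 0 in 9 of the 12 libraries, and *Acta1* was at 0 in 1 library, with at most 3.27 CPM in WT and 13.1 CPM in KO.

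The remaining lists gave few calls. Of 23 TEAD factors and YAP targets 2 rose (8.70% against 1.06% of all genes) and 1 fell (4.35% against 1.12%). *Tead1*, the DNA-binding partner of YAP, was at 24.6, 33.5 and 43.0 CPM in WT and 54.9, 60.6 and 93.9 CPM in KO (log2FC 0.99, SE 0.11, adjusted p = 0.00439), and it was called in all 12 fits without 1 library. *Axl*, a receptor tyrosine kinase, rose by 0.61 (SE 0.13, adjusted p = 0.0378), and the member that fell was *Vgll4*, described above. *Amotl2*, a regulator that binds YAP, was at 38.2 to 78.0 CPM in WT and 73.5 to 106.6 CPM in KO (log2FC 0.61, adjusted p = 0.0660). The list's median was 0.22.

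In lipolysis and lipid droplet genes, *Lpin1*, a phosphatidic acid phosphatase and transcriptional cofactor, rose from a median of 415.7 to 651.1 CPM (log2FC 0.65, SE 0.15, adjusted p = 0.0475) and was called in 2 of the 12 fits without 1 library. *Cidea* fell, so that 1 of the 17 members rose and 1 fell (5.88% each, against 1.06% and 1.12% of all genes). Of the 17, 15 were negative, with a median of -0.20. De novo lipogenesis had 0 of 15 called by edgeR's quasi-likelihood test, 2 at an unadjusted p under 0.05 and 1 lower by DESeq2, with a median log2FC of -0.0047, which was 0.31 without mice 69 and 76. Neither *Lpin1* nor *Cidea* was called without these mice. Single members rose in the lists of white fat and adipokines (*Mest*), insulin and IGF signalling (*Grb10*, an inhibitor of both receptors, log2FC 0.68, adjusted p = 0.0186), the integrated stress response (*Psat1* of serine synthesis, 0.82, adjusted p = 0.0378) and interferon-stimulated genes (*Oasl2*, 0.94, adjusted p = 0.0475). They made up 6.25%, 4.17%, 5.56% and 3.125% of the members tested, beside 1.06% of all genes. Each of these 4 lists had 0 members called without mice 69 and 76, and with 1 library left out *Grb10* was called in 9 of 12 fits, *Mest* in 5, *Oasl2* in 3 and *Psat1* in 1. Of 77 cytosolic ribosomal protein genes 1 fell (1.30%, near the 1.12% of all genes), *Rps19* (log2FC -0.45, SE 0.07, adjusted p = 0.00950), and the median was -0.10. It was -0.23 without mice 69 and 76, and then 5 members fell, *Rps19*, *Rps20*, *Rps21*, *Rps29* and *Rpl18*. The proteasome, circadian clock and immediate early gene lists had 0 calls by edgeR's test. At an unadjusted p under 0.05 they had 3, 1 and 5 members, and DESeq2 called 0, 0 and 3. The immediate early list's median was 0.24, and -0.12 without mice 69 and 76. The interferon list's median of 0.43 was 0.08 without mouse 69 and -0.04 without mice 69 and 76.

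Some further genes were singled out after their values were seen. *Zbtb16*, a zinc finger transcription factor that glucocorticoids induce, was at 6.98, 13.2 and 59.9 CPM in WT and 34.0, 85.7 and 90.5 CPM in KO. Its log2FC was 1.99 (SE 0.41, adjusted p = 0.0325), and 1 WT library, mouse 65 of WT + AAV-GFP, lay within the KO range. *Tsc22d3*, another glucocorticoid-induced gene, was not called (log2FC 0.78, SE 0.25, adjusted p = 0.113), nor was *Per1* (log2FC 0.49, SE 0.26, adjusted p = 0.350). *Mki67*, a marker of cycling cells, was at 0.714, 1.96 and 10.1 CPM in WT and 5.86, 7.61 and 11.6 CPM in KO (log2FC 1.62, SE 0.33, adjusted p = 0.0302). *Prc1* (log2FC 1.47), *Cenpe* (1.23), *Kif23* (1.23) and *Hmmr* (1.66), which act in mitosis, were called too, and *Top2a* was not (1.64, adjusted p = 0.0509). No list of such genes was fixed, so these values describe single genes. For *Mki67* the difference was 2.55 within AAV-PRDM16 and 0.70 within AAV-GFP, where WT libraries reached 4.97 and 10.1 CPM. With 1 library left out, *Mki67* was called in 6 of 12 fits, *Zbtb16* in 2 and *Hmmr* in 0. The interaction test for *Mki67* gave an unadjusted p of 0.0139 and did not pass adjustment.

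The interaction had an unadjusted p under 0.05 in 33 of the 200 genes that rose and in 13 of the 212 that fell, beside 603 of the 18899 tested. Its 3 smallest p-values were those of *Gm13340*, *Frmd7* and *Cand2*, with adjusted p-values of at least 0.712 by edgeR's quasi-likelihood test. *Gm13340*, an unprocessed pseudogene whose reads may be shared with the sequence it was copied from, was at 136.6 to 149.6 CPM in WT + AAV-GFP and 58.2 to 66.8 CPM in KO + AAV-GFP. In WT + AAV-PRDM16 it was at 70.5 to 99.8 CPM and in KO + AAV-PRDM16 at 73.8 to 87.0 CPM. *Frmd7* was near the limit of counting, with 0 counts in the 3 libraries of WT + AAV-PRDM16 and at most 0.251 CPM elsewhere. *Cand2* was at 0.278 to 0.935 CPM over the 12 libraries.

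The called genes differed in transcript length. The median length, taken for each gene as the median over its transcripts in the GENCODE annotation, was 1964.5 nt in genes that rose, 844.25 nt in genes that fell and 1360.5 nt in all genes tested. Their median GC content was 49.3%, 54.8% and 50.2%. Of 1335 genes of up to 500 nt, 0.449% rose and 2.55% fell, and of 2899 genes over 3000 nt, 2.00% rose and 0.241% fell. The median log2FC of all genes went with length from -0.05 in the shortest to 0.09 in the longest class. A correction of each library for its trends with GC content and length takes out such a gradient by design. The medians of these 2 classes were then both -0.01. After this correction 146 genes rose and 120 fell, of which 130 and 101 were among the genes called before.

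**Figure D5:**
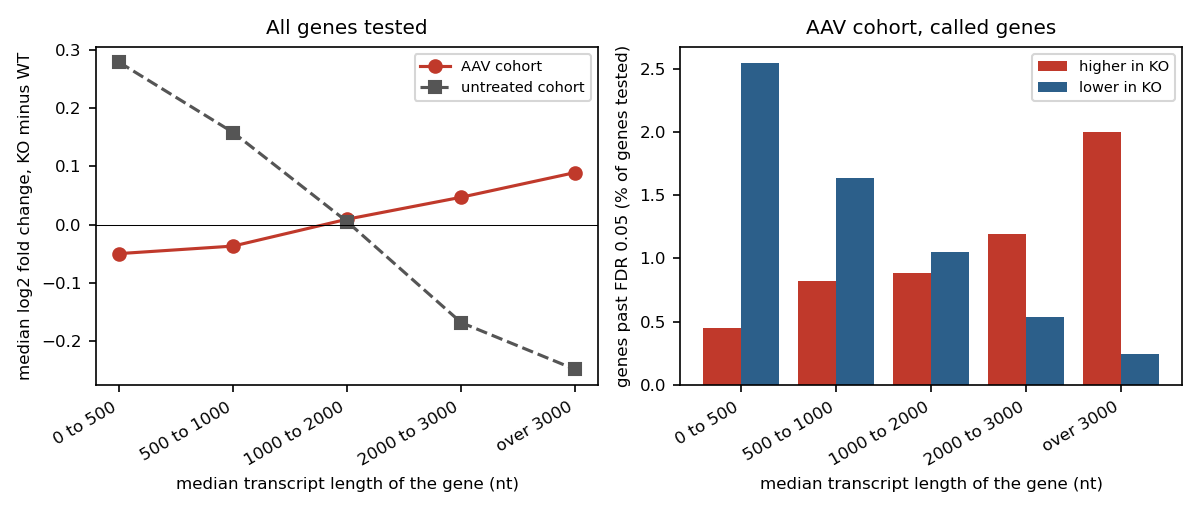
Left, median log2 fold change, KO minus WT, of all genes tested in 5 classes of median transcript length (nt), in the AAV cohort (red) and the untreated cohort (grey). Right, share of genes of each class that were called higher (red) or lower (blue) in KO in the AAV cohort, where lower calls fall from 2.55% to 0.241% and higher calls rise from 0.449% to 2.00% from the shortest to the longest class.

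The direction of the called genes was read in the untreated cohort, 5 mice labelled WT and 5 labelled KO of 21 to 25 weeks, whose counts were filtered, scaled and fitted apart. Both deposited labels and counts limit that cohort: *Cpeb2* in replicate 1 labelled KO was in the WT range, and 6 of the 10 libraries lacked Y-linked transcripts although the labels give male mice. By edgeR's quasi-likelihood test 0 of 17869 genes were called there, with 2836 at an unadjusted p under 0.05. Of the 197 tested genes that rose in the AAV cohort, 140 (71.1%) had a positive log2FC in the untreated cohort, against 50.3% of all genes tested in both. Of the 212 that fell, 35 (16.5%) had a negative log2FC, against 49.7% of all genes, so that most were of opposite sign. Their median log2FC was 0.51 there, against -0.42 in the AAV mice. With the untreated libraries corrected for GC content and length, a setting chosen after seeing the data, 154 of the 197 were positive and 65 of the 212 negative. When the fit took account of whether a library held Y-linked transcripts, the numbers were 163 and 63. Without replicate 1 labelled KO they were 110 and 28, and without replicates 1 and 2 of the WT group 118 of 200 and 38 of 212. The share of all genes moved too. In these fits, in the order given, 46.8%, 50.6%, 49.1% and 53.6% of all genes tested in both cohorts were positive. The negative shares were 53.2%, 49.4%, 50.9% and 46.4%.

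By list, in the untreated cohort the complex I genes had a median log2FC of 0.51 and those of complexes II to V of 0.50, opposite in sign to the AAV cohort, while collagens and matrix (0.19) and macrophage markers (0.73) had the same sign. These medians moved with the alternatives: for complex I from 0.15, with Y-linked transcripts in the fit, to 0.67, without replicate 1 labelled KO, and for complexes II to V from 0.14 to 0.65 in the same fits. The macrophage median was 0.018 without replicate 1 labelled KO, with 10 of 18 positive, and 1.01 with Y-linked transcripts in the fit. The collagen median was 0.063 without that replicate and -0.0072 after the correction for GC content and length, with 14 of 30 positive. Of the skeletal muscle list, 40 of 40 genes were positive in the untreated cohort, with a median of 2.02. All 40 stayed positive under each alternative, with medians of 1.35, without replicates 1 and 2 of the WT group, to 2.39, with Y-linked transcripts in the fit. None of these genes was called there. *Ndufa1* was at 22.2 to 267.9 CPM in untreated WT mice and 100.2 to 256.9 CPM in those labelled KO. *Col4a1* was at 215.1 to 404.0 and 352.0 to 606.5 CPM (log2FC 0.48, SE 0.26), and *Fkbp5* at 2.53 to 40.2 and 12.6 to 101.0 CPM (log2FC 1.23, SE 0.73). Without replicate 1 labelled KO the log2FC of *Fkbp5* was 0.51, and that of *Col4a1* was -0.07 after the correction for GC content and length. *Tead1* (0.20, SE 0.51) and *Vgll4* (-0.27, SE 0.37) had differences smaller than their errors. *Tead1* was at -0.57 without replicate 1 labelled KO and *Vgll4* at 0.16 without replicates 1 and 2 of the WT group. *Prdm16*, with no viral transcript in these mice, was at 15.7 to 38.7 CPM in WT and 12.6 to 26.1 CPM in those labelled KO. Its log2FC was -0.67 (SE 0.28, adjusted p = 0.306 by edgeR's quasi-likelihood test). Under the alternatives it ran from -0.75, after the correction for GC content and length, to -0.26, without replicates 1 and 2 of the WT group. The trend of the median log2FC with transcript length ran the other way there, from 0.28 in genes of up to 500 nt to -0.25 in genes over 3000 nt. Per the study, the untreated mice were deprived of food for some hours before BAT was taken. Virus, age, feeding, sex of the mice and sequencing run differ between the cohorts or are unknown, and cannot be told apart.

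Genes near the knocked-out locus were looked at by position. Of 128 genes tested within 10 Mb of the start of *Cpeb2*, 6 were called (4.69%), and 31 of 1211 on chromosome 5 as a whole (2.56%), beside 2.18% of all genes. Both counts include *Cpeb2*, without which 5 and 30 genes were called. The 6 nearby genes were *Cpeb2*, *Qdpr* and *Bloc1s4*, which fell, and *Cd38*, *Rgs12* and *Htra3*, which rose. *Cd38*, an enzyme that consumes NAD, was the closest of the 3, with a log2FC of 0.90 (adjusted p = 0.0355). The genes were named for their position after the calls were known.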

How the data were processed

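BAT RNA was sequenced as mRNA libraries, 1 library per mouse, and p-values measure the spread between mice. Per the submitters' processing notes, bcl2fastq 2.20, Trimmomatic 0.36 and HISAT2 were used with the mouse build GRCm38, without roles or order. The counting tool, annotation, and the handling of strand and molecular identifiers are not given in the sources used here. The authors deposited whole-number read counts per gene without normalization, and these counts as deposited were analysed in R 4.3.3. Reads shared by paralogs, pseudogenes or genes on opposite strands could not be separated, and 24 of the 92 genes whose values were followed through the alternatives overlap another tested gene.

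Groups were taken from the labels, and 0 columns stayed unmapped. Genes were kept by filterByExpr over the 4 groups, scaled by TMM and fitted by edgeR 4.0.16 (glmQLFit, glmQLFTest) as 4 group means. Totals of 61636889 counts or more put 3 counts, the limit read from a count of 0, at no more than 0.0501 CPM, which covers counting error only. Replicate pairs differed by far more than counting noise. Same-numbered libraries of different groups deviated from their group means with correlations of -0.09 to 0.15, over 0.1 in 2 of 18 pairs. No values of differently numbered libraries stand beside these, so they cannot decide whether the numbers pair the mice. The reported fit took no account of the numbers. List scores are mean log2 CPM with a prior count of 2. Symbols, lengths and GC content came from GENCODE for GRCm38, which matched 55227 of 55487 identifiers. No set test was run. The alternatives used DESeq2 1.42.0, limma 3.58.1 and sva 3.50.0, other scalings, filters and models, spline trends of 4 degrees of freedom, and each library left out.

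Named genes were *Cpeb2* and *Prdm16*, up to 12 per direction with the largest log2FC among called protein-coding genes of at least 1 CPM without overlap of the 6 and 6 libraries, called and most abundant members of each of 30 lists, and the 3 smallest p-values of the interaction. The members and the lists were chosen with earlier results of these data known.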

Additional observations from a re-analysis of the deposited data

Results flagged for a closer look

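In groups of 6 libraries, Dixon's criterion for a single library far from the others was met in 16 of 244 groups checked, 6.56%, and chance gives about 1 in 20. All values here are log2 CPM. Mouse 69 of KO + AAV-GFP stood above the other KO libraries for *Itgam* (3.31), *Oasl2* (3.33), *Csf1r* (5.07), *C1qb* (5.48) and *Col1a1* (5.35). Mouse 57 of KO + AAV-GFP was highest for *Cenpf* (1.46) and for the mean over the skeletal muscle list (1.74), mouse 76 of KO + AAV-PRDM16 for *Vasn* (3.88) and mouse 65 of KO + AAV-PRDM16 for *Tead1* (6.55). Mouse 64 of KO + AAV-GFP was lowest for *Mfap5* (0.793). Among WT libraries, mouse 56 of WT + AAV-GFP was lowest for *Fmc1* (3.09) and highest for *Fbn1* (3.68) and *Cpeb1* (4.76). Mouse 65 of WT + AAV-GFP was lowest for *Sparc* (8.48), mouse 89 of WT + AAV-GFP for the mean over the CPEB family (4.34), and mouse 64 of WT + AAV-PRDM16 was highest for the skeletal muscle list (0.34).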

How the results depend on the processing

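Higher and lower calls over both viruses, 200 and 212, became 834 and 750 with DESeq2, 576 and 693 with limma-voom, 127 and 123 without a filter on low counts, 92 and 140 with 1 surrogate variable, and 61 and 109 without mice 69 and 76. The adjusted p threshold of 0.01 gave 23 and 21 and that of 0.1 gave 597 and 579. With GC content and length trends removed, 120 genes were called lower. The replicate block, for which it could not be decided whether the numbers pair the mice, gave 179 and 165, and with those trends removed as well 156 and 93. Calls were 62.7% higher in the latter fit, 39.7% with the surrogate variable and 35.9% without mice 69 and 76. With 1 library left out, higher calls ran from 51 to 362 and lower calls from 36 to 228. None of the 412 genes changed sign under an alternative that kept it, and the cause of the moves was not tested. *Cpeb2* stayed called throughout. The interaction gave 1 gene with DESeq2, 2 without mice 69 and 76, and 0 to 1 with 1 library left out. Calls within AAV-GFP were 243 with DESeq2, 1 with the block, 3 with GC content and length trends removed, 1 with both, and 0 to 8 with 1 library left out. Within AAV-PRDM16 they were 619 with DESeq2, 545 with limma-voom, 27 at 1 CPM in 6 libraries, 5 with the block, 2 with the surrogate variable, 0 without mice 69 and 76, and 0 to 15 with 1 library left out. Members of the lists that were called, 78, became 190 with DESeq2, 181 with limma-voom, 50 without mice 69 and 76, and 28 to 96 with 1 library left out. Genes without overlap, 512, became 970 without mice 69 and 76 and 575 to 932 with 1 library left out, where fewer libraries have to be separated. *Prdm16* had a log2FC of 0.0103 with limma-voom, 0.0466 with the surrogate variable, 0.0149 without mice 69 and 76, and -0.225 to 0.0516 with 1 library left out. *Cpeb1* had 0.0792, 0.0351, 0.0329, and -0.145 to 0.0949 under the same alternatives. In the untreated cohort, 55.8% of the genes that rose were positive without replicate 1 labelled KO, 59% without replicates 1 and 2 of the WT group, 82.7% with Y-linked transcripts as a covariate and 78.2% with GC content and length trends removed. Of the genes that fell, 29.7% and 30.7% were negative under the last 2. Over all genes tested in both cohorts, 49.1%, 53.6%, 50.6% and 46.8% were positive under the same alternatives, in that order. At these depths a count of 0 allows up to 0.0501 CPM in the shallowest library.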
